A study of Mus musculus with 31 samples.

Results

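The genes described here are 6 that lung and its immune cells use to make small inflammatory metabolites: Acod1 for itaconate, Nos2, Arg1 and Slc7a2 for arginine and nitric oxide, and Ptgs2 and Ptges for prostaglandin E2. They were chosen by name out of 19938 genes on the arrays, each is read by 1 probe set that carries its symbol alone, and all 6 passed the filter on low values. The data are log2 intensities from 31 arrays of whole lung of male mice, with strain labels AKR and C57 BL/6 (C57 below), each array from 1 sample that its title calls a biological replicate. All arrays carry the age label 6 weeks, with no word on whether that is the age at the start or the end.

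Mice breathed room air or cigarette smoke and then received LPS (lipopolysaccharide, bacterial endotoxin) in normal saline, or normal saline alone, into the trachea. C57 mice with air and saline, smoke and saline, air and LPS, and smoke and LPS gave 3 arrays each. AKR mice gave 3, 3, 3 and 2 arrays for the same treatments. Room air alone, with no instillation, gave 3 arrays of each strain with a title of 6 weeks, and 2 of AKR with a title of 3 weeks. The titles put all instilled mice at 3 weeks of exposure, whereas the series description puts instilled mice at 6 weeks, so exposure times cannot be settled here. Every smoke-exposed mouse analysed here had an instillation, and the LPS dose and the time from instillation to dissection are not given in the sources used here.

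Activated macrophages make itaconate from cis-aconitate, an intermediate of the citrate cycle, with the enzyme that Acod1 encodes, and itaconate restrains succinate dehydrogenase. Inducible nitric oxide synthase (Nos2) and arginase (Arg1) compete for the amino acid arginine, which the cationic amino acid transporter Slc7a2 carries into the cell. Cyclooxygenase (Ptgs2) turns arachidonic acid into prostaglandin H2, and the microsomal synthase Ptges turns that into prostaglandin E2. Endotoxin is a classical inducer of Acod1, Nos2 and Ptgs2 in macrophages, while Arg1 is best known as a gene induced by interleukin 4 and interleukin 13.

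Of these 6 genes 3 have an entry in the RefSeq promoter table of mouse build GRCm38.p6, and the 250 bases before each transcription start are shown for these 3. Ptgs2 passed in both strains only without a pair of doubted C57 arrays. The Acod1 window is chr14:103046762-103047011 on the plus strand, the Ptgs2 window chr1:150099781-150100030 on the plus strand and the Ptges window chr2:30903298-30903547 on the minus strand. Capitals mark the TATA box letters in Acod1, a C/EBP element in Ptgs2 and a STAT6 element in Ptges.
Acod1: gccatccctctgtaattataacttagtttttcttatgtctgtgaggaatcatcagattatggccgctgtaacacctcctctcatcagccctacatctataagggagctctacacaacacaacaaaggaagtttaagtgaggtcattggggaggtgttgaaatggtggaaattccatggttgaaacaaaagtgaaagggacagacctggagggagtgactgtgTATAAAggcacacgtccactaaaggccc
Ptgs2: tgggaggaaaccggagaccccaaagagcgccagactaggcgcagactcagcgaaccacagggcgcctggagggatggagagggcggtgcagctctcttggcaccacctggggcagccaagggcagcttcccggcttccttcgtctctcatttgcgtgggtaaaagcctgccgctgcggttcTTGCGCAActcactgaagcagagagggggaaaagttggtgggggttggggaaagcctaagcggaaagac
Ptges: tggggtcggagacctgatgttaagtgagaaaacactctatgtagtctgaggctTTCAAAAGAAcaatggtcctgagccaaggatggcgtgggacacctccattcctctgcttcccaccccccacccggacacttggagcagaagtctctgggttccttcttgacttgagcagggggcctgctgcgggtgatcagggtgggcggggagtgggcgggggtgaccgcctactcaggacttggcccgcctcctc
Both strands of 300 bases, these 250 and the 50 after the start, were searched for 7 motifs. Matches of different motifs did not overlap. The C/EBP match in Ptgs2 and the STAT6 match in Ptges read on both strands at the same bases. The TATA box (TATAAA) lies at -28 to -23 of Acod1 and occurs in 13.6% of 32851 mouse promoters of the same length. The C/EBP element (TTGCNNAA, 10.8% of promoters) lies at -69 to -62 of Ptgs2, whose window also has the CRE core (TGACG, 20.8%) on the minus strand at 14 to 18 after the start. The STAT6 element (TTCNNNNGAA, 6.95%) lies at -197 to -188 of Ptges. The NF-kB consensus was searched as GGGRNNYYCC, R being A or G and Y being C or T, and occurs in 8.46% of promoters. Neither it, nor the ISRE (GAAANNGAAA, 3.44%), nor the GAS (TTCNNNGAA, 8.3%) has a full match in any of the 3 windows. Near matches were not counted: the stretch tggaaattcc of Acod1 differs from the NF-kB consensus in its first letter alone. These matches describe letters in the windows only.

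A pair of C57 arrays went against their labels in Acod1. The array labelled C57 smoke saline 3 read 11.17 for Acod1, where the other smoke saline arrays read 6.60 and 6.26. The array labelled C57 smoke LPS 3 read 6.22, where the other smoke LPS arrays read 13.24 and 11.94. Comparisons of the 6 genes are therefore given with all 31 arrays and, where it moved a call, without this pair, which was singled out by values that include these genes, so the smaller p-values without it are not independent evidence. Because the fit takes 1 spread per gene from all groups, the pair also widens the errors of comparisons it is not in. The deposited values fall into a set of 18 arrays with medians from 6.96 to 7.10 (all C57 arrays and AKR room air alone at 6 weeks) and a set of 13 with medians from 6.80 to 6.90 (the other AKR arrays). Whether the sets were normalized together is not given in the sources used here, so levels of AKR and C57 across them are limited by that. Each LPS comparison lies within 1 set. The surfactant gene Sftpc, which marks lung epithelium, read 12.99 to 13.83 on all arrays.

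After LPS, 5 of the 6 genes rose in each strain that had breathed room air, by 2.33-fold to 70.4-fold in C57 and 2.29-fold to 86.7-fold in AKR. Ptgs2 in C57 and Arg1 in AKR were the exceptions. In all, 11.5% of 14705 tested genes rose in C57 and 9.45% in AKR (limma adjusted p under 0.05, as for every call below). The median change of the 6 was 1.55 log2 units in C57 and 1.70 in AKR, against -0.01 and -0.04 over all genes tested. Without the pair of C57 arrays all 6 passed in both strains, where 15.2% and 11.8% of tested genes rose. Every LPS array lay above every saline array for each of the 6 genes in both strains, which held for 24% of tested genes in C57 and 15.4% in AKR.

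**Figure D1:**
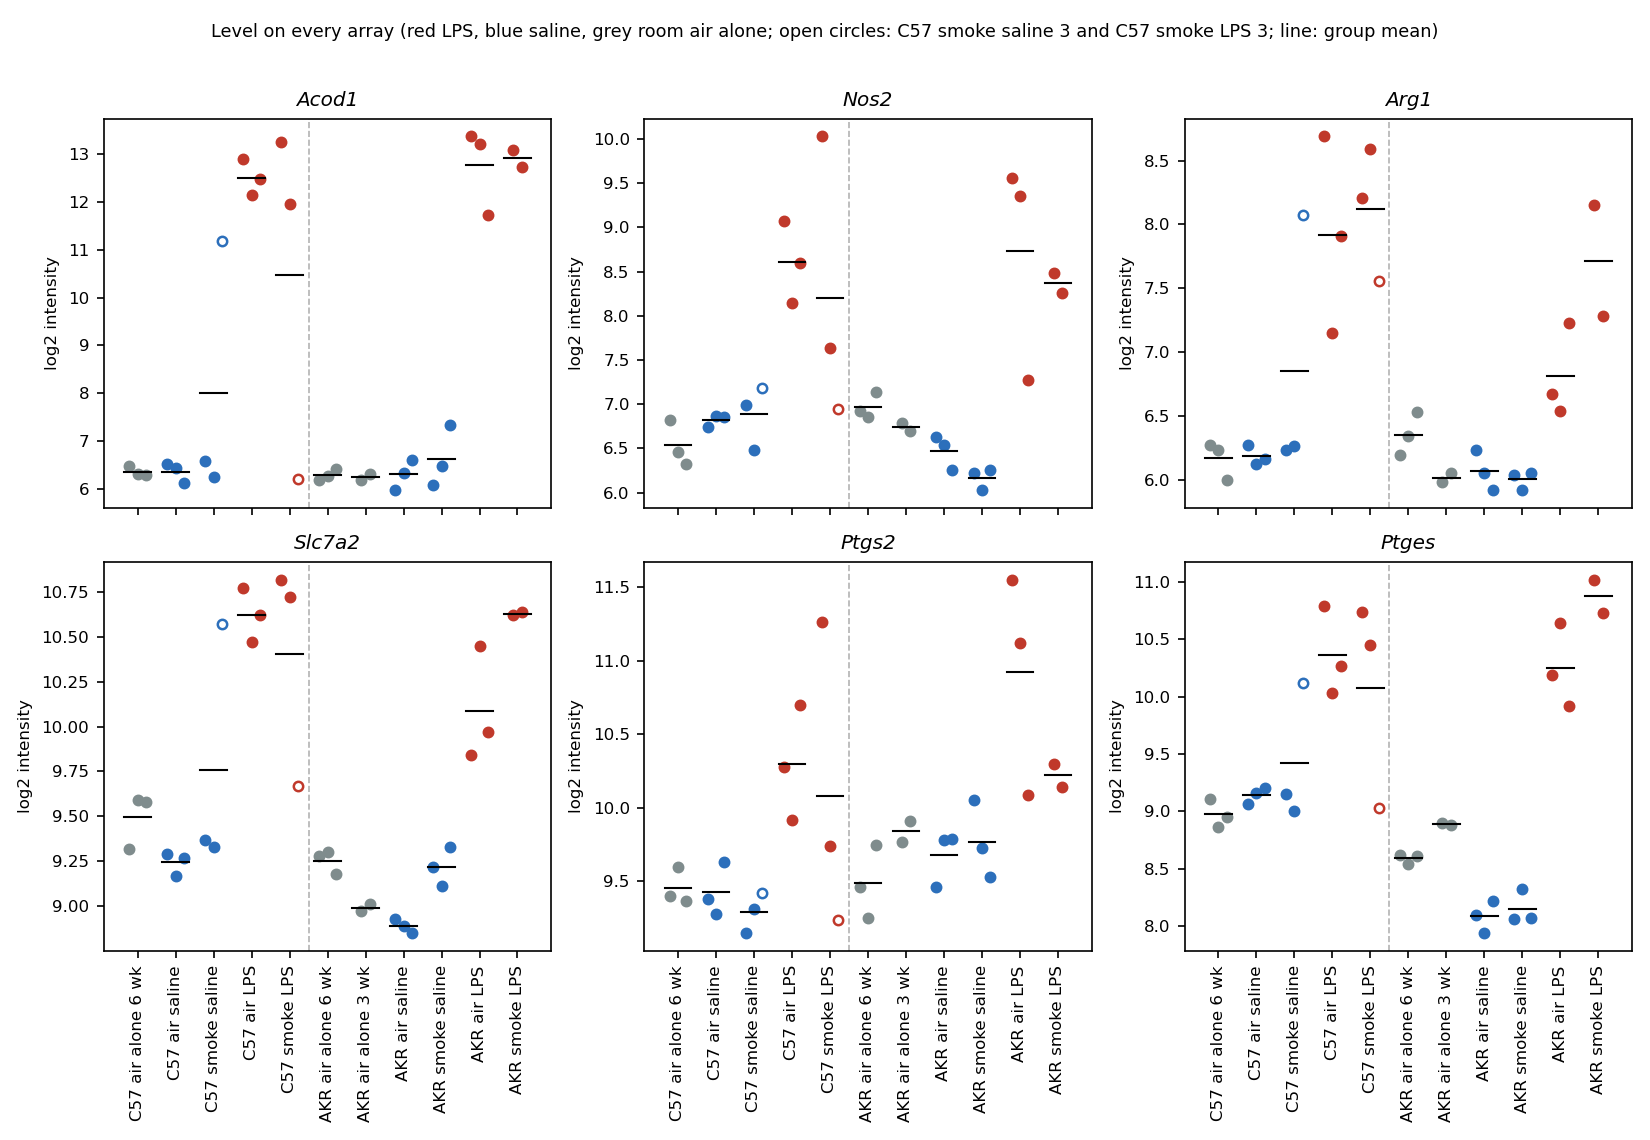
Log2 intensity (vertical axis) of each of the 6 genes on every array, by group (horizontal axis); red points are LPS, blue saline and grey room air alone, lines are group means, and open circles are the C57 arrays labelled smoke saline 3 and smoke LPS 3. The red points of Acod1 run from 11.72 to 13.36, apart from the open circle at 6.22, while those of Ptgs2 run from 9.74 to 11.55, apart from the open circle at 9.24, and overlap the other treatments.

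Acod1 had the largest LPS change of the 6 in all 4 LPS comparisons, in C57 after smoke as in the others. Air LPS arrays read 12.89, 12.13 and 12.48 in C57 against 6.53, 6.44 and 6.13 with saline. In AKR they read 13.36, 13.20 and 11.72 against 5.99, 6.35 and 6.62. The groups lie more than 5 log2 units apart in both strains, and the C57 and AKR ranges with LPS overlap. The changes were 6.14 ± 1.15 log2 units (70.4-fold, limma adjusted p = 0.0037) in C57 and 6.44 ± 1.15 (86.7-fold, adjusted p = 0.00058) in AKR, ± being the standard error here and below (n = 3 and 3). Without the pair the standard error fell to 0.35 in both. AKR smoke LPS arrays read 13.08 and 12.73 against 6.09, 6.49 and 7.34 with smoke and saline, a rise of 6.26 ± 1.28 (76.9-fold, adjusted p = 0.00091). Room air alone gave 6.29 to 6.49 in C57, 6.19 to 6.42 in AKR at 6 weeks and 6.19 and 6.33 in AKR at 3 weeks. On the 19 arrays without LPS outside the pair Acod1 lay at a median of the 39.3th percentile of all probe sets, where a fold change can be understated.

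Nos2 was the gene whose order of arrays followed Acod1: within each of the 4 LPS groups both genes ranked the arrays alike, the array labelled C57 smoke LPS 3 included. Air LPS arrays read 9.07, 8.14 and 8.60 in C57 against 6.74, 6.87 and 6.86 with saline. In AKR they read 9.56, 9.36 and 7.27 against 6.63, 6.54 and 6.25. The groups did not overlap, although AKR air LPS 3, also the lowest array of its group for Acod1, stood nearest to the saline arrays. Nos2 rose by 1.78 ± 0.52 in C57 (3.43-fold, limma adjusted p = 0.024) and by 2.26 ± 0.52 in AKR (4.79-fold, adjusted p = 0.0043; 0.052 in a fit of both AKR groups alone). The C57 call was lost on leaving out any of 5 of its 6 arrays: the adjusted p was 0.073, 0.062 and 0.059 without saline 1, 2 and 3, and 0.08 and 0.063 without LPS 1 and LPS 3. After smoke, AKR arrays read 8.48 and 8.26 with LPS against 6.22, 6.03 and 6.25, a rise of 2.21 ± 0.58 (4.61-fold, adjusted p = 0.0062; 0.057 without AKR smoke LPS 1). Uninstilled arrays read 6.32 to 6.82 in C57, 6.85 to 7.14 in AKR at 6 weeks and 6.70 and 6.79 in AKR at 3 weeks.

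Arg1, the arginase of the urea cycle and of alternatively activated macrophages, ordered the LPS groups differently. C57 air LPS arrays read 8.69, 7.15 and 7.91 against 6.27, 6.12 and 6.16 with saline, a rise of 1.73 ± 0.37 (3.32-fold, limma adjusted p = 0.0057). AKR air LPS arrays read 6.67, 6.54 and 7.23 against 6.23, 6.05 and 5.92, a difference of 0.74 ± 0.37 (1.67-fold, adjusted p = 0.18; 0.04 without the pair). AKR air LPS 3, the highest array of its group for Arg1, was the lowest for Acod1, Nos2 and Ptgs2. AKR smoke LPS arrays read 8.15 and 7.28 against 6.04, 5.92 and 6.05, a rise of 1.71 ± 0.42 (3.27-fold, adjusted p = 0.0034; 0.09 without AKR smoke LPS 1). Arrays with room air alone read 5.98 to 6.53 over both strains, close to the saline arrays. On the 19 arrays without LPS outside the pair Arg1 lay between the 32.3th and 40.6th percentiles of all probe sets, about the filter at the 40th, so it passed the filter mainly through the LPS arrays and its fold changes can be understated. The array labelled C57 smoke LPS 3 read 7.56 for Arg1, above every array without LPS outside the pair, while its Acod1 read 6.22. On the array labelled C57 smoke saline 3 Arg1 read 8.07.

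Slc7a2, the arginine transporter, rose in both strains after room air and in AKR after smoke. C57 air arrays read 10.77, 10.47 and 10.62 with LPS and 9.29, 9.17 and 9.27 with saline, a rise of 1.37 ± 0.25 (2.59-fold, limma adjusted p = 0.0035). AKR air arrays read 9.84, 10.45 and 9.97 with LPS and 8.93, 8.89 and 8.85 with saline, a rise of 1.19 ± 0.25 (2.29-fold, adjusted p = 0.0021). AKR smoke arrays read 10.62 and 10.64 with LPS and 9.22, 9.11 and 9.33 with saline, a rise of 1.41 ± 0.28 (2.65-fold, adjusted p = 0.00074). No LPS array outside the pair fell below 9.84 and no array without LPS outside it exceeded 9.59. These 3 calls held on leaving out any array of the groups compared. On arrays without LPS outside the pair its median percentile among all probe sets was 82, and the medians of Arg1 and Nos2 were 36 and 46.

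Ptgs2 was the least regular of the 6. C57 air arrays read 10.28, 9.92 and 10.70 with LPS and 9.38, 9.28 and 9.63 with saline, a difference of 0.87 ± 0.35 (1.82-fold, limma adjusted p = 0.087; 0.046 without the pair). AKR air arrays read 11.55, 11.12 and 10.09 with LPS and 9.46, 9.78 and 9.79 with saline, a rise of 1.24 ± 0.35 (2.36-fold, adjusted p = 0.016). That call was lost without AKR air saline 1 (adjusted p = 0.064), air LPS 1 (0.10) or air LPS 2 (0.069), in a fit of both groups alone (0.074) and against room air alone (0.061; 0.029 without the pair). AKR smoke arrays read 10.30 and 10.14 with LPS and 10.05, 9.73 and 9.53 with saline, and the difference of 0.45 ± 0.39 (95% interval -0.35 to 1.25, adjusted p = 0.41) did not pass. Of the 10 LPS arrays outside the pair 8 lay above every array without LPS, whose highest was 10.05. Room air alone gave 9.25 to 9.91, and Ptgs2 stood at a median percentile of 85.8 without LPS.

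Ptges, the last enzyme on the way to prostaglandin E2, rose in both strains. C57 air arrays read 10.79, 10.03 and 10.27 with LPS and 9.06, 9.16 and 9.20 with saline, a rise of 1.22 ± 0.30 (2.33-fold, limma adjusted p = 0.011). AKR air arrays read 10.19, 10.64 and 9.92 with LPS and 8.10, 7.94 and 8.22 with saline, a rise of 2.16 ± 0.30 (4.48-fold, adjusted p = 6.9e-05). AKR smoke arrays read 11.02 and 10.73 with LPS and 8.06, 8.32 and 8.07 with saline, a rise of 2.73 ± 0.34 (6.64-fold, adjusted p = 8.6e-06). With LPS the ranges of the strains after air overlapped, and with saline every AKR array lay below every C57 array. These levels are compared across the sets of arrays and are limited by that. The share of all tested genes with such a strain order was not counted. After smoke in AKR 5 of the 6 genes rose, with Ptgs2 the exception, where 16.9% of tested genes did (18.6% without the pair, with the same count of members). All 6 lay above saline on every array there, as did 29.5% of tested genes. The median change of the 6 there was 1.96, against 0 over all genes.

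In C57 after smoke the comparison rests on the pair of arrays. With all arrays none of the 6 passed (adjusted p = 0.56 for each, in a comparison in which 0% of tested genes passed), although all 6 had an unadjusted p under 0.05, as did 1300 genes of 14705. Acod1 differed by 2.46 ± 1.15, Nos2 by 1.32 ± 0.52 and Arg1 by 1.27 ± 0.37. Without both arrays (n = 2 and 2) all 6 rose, where 10.9% of tested genes did. Acod1 then rose by 6.16 ± 0.43 (71.7-fold, limma adjusted p = 9.6e-10), Arg1 by 2.15 ± 0.31 (4.45-fold, 3.4e-05) and Ptges by 1.52 ± 0.20 (2.87-fold, 8.8e-06). Slc7a2, Nos2 and Ptgs2 rose by 1.42, 2.10 and 1.28 log2 units (adjusted p = 1.5e-07, 0.011 and 0.019). The pair was singled out by values in these same groups, Acod1 among them, so these p-values are not independent evidence. Leaving out smoke LPS 3 alone also gave 6 calls, and leaving out smoke saline 3 alone gave 2, Arg1 and Slc7a2. Over the 6 omissions of a single array, 0 to 1881 of all tested genes passed. The 6 genes did not read alike on these arrays. On smoke saline 3 Slc7a2 (10.57) and Ptges (10.12) stood in the range of LPS arrays, and Nos2 (7.18) and Ptgs2 (9.42) stood below it. On smoke LPS 3 Nos2 read 6.95, Slc7a2 9.67, Ptgs2 9.24 and Ptges 9.03.

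**Figure D2:**
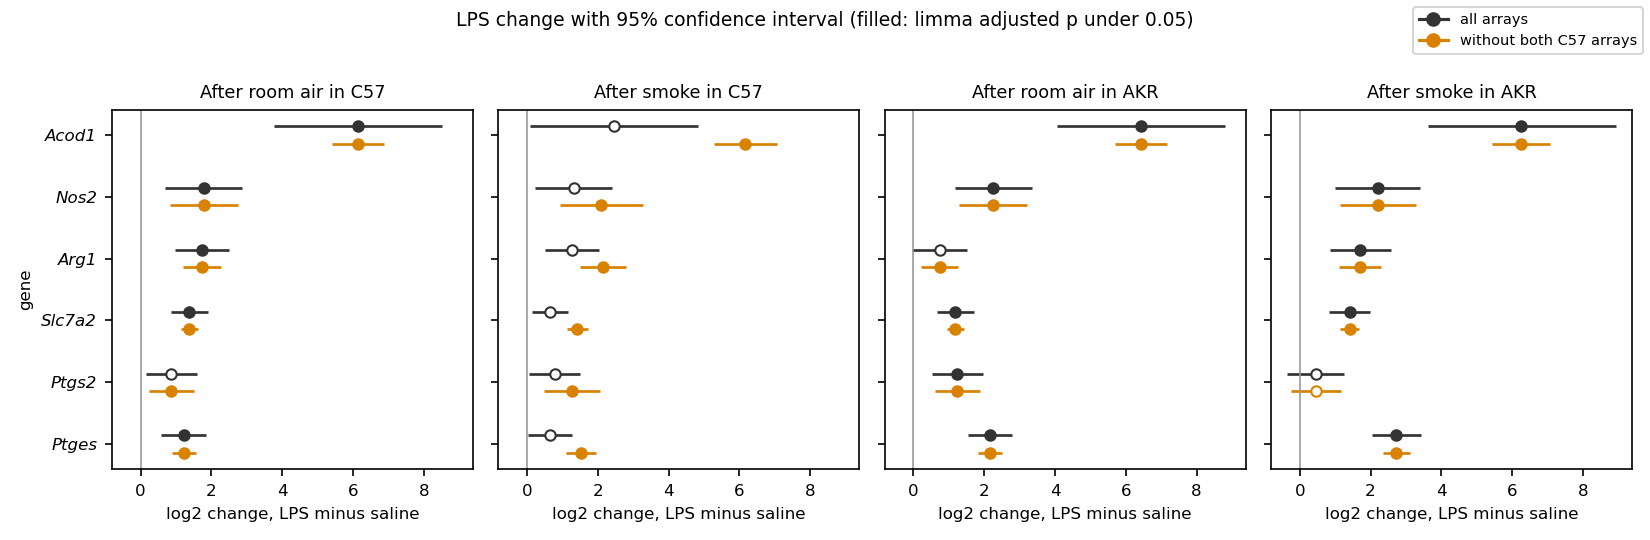
LPS minus saline on the log2 scale (horizontal axis) for the 6 genes (vertical axis) in each strain and exposure; points are limma estimates, bars 95% confidence intervals, and filled points passed at an adjusted p under 0.05, in black with all arrays and in orange without the C57 arrays labelled smoke saline 3 and smoke LPS 3. The black Acod1 point for C57 after smoke is at 2.46 and the orange one at 6.16, and no bar of Ptgs2 in AKR after smoke clears 0.

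None of the 6 genes passed between cigarette smoke and room air in lungs without LPS. In C57 the differences between smoke and room air with saline ran from -0.14 (Ptgs2) to 1.64 (Acod1), none passed and 0% of tested genes did, with 906 genes and none of the 6 at an unadjusted p under 0.05. Slc7a2 alone of the 6 did not overlap there, as for 13.3% of tested genes, with a difference of 0.51 ± 0.25 (limma adjusted p = 0.80). Without the pair the range was -0.21 to 0.11. In the AKR arrays the range was -0.31 (Nos2) to 0.33 (Slc7a2), again with none passing where 0.034% of genes did (0.333% without the pair), and 944 genes but none of the 6 had an unadjusted p under 0.05. In AKR 2 of the 6 genes did not overlap, as for 11.7% of tested genes. For Nos2 the smoke arrays were the lower (means 6.16 and 6.47, a difference of -0.31 ± 0.52, limma adjusted p = 1). For Slc7a2 they were the higher, at 9.22, 9.11 and 9.33 with smoke against 8.93, 8.89 and 8.85, and the difference of 0.33 ± 0.25 had a limma adjusted p of 0.94 (0.32 without the pair). The 95% interval of that difference was -0.19 to 0.85.

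With LPS, smoke-exposed AKR lungs read higher than air-exposed ones for Arg1, Slc7a2 and Ptges, and the values of these 3 genes did not overlap, as for 35% of tested genes. Arg1 differed by 0.90 ± 0.42 (1.87-fold, limma adjusted p = 0.29), Slc7a2 by 0.54 ± 0.28 (1.46-fold, 0.34) and Ptges by 0.63 ± 0.34 (1.54-fold, 0.37; n = 2 and 3). None of the 6 passed, where 0.0068% of tested genes did, and only Arg1 had an unadjusted p under 0.05, as did 2342 genes. Without the pair of C57 arrays Slc7a2 passed (adjusted p = 0.033), where 1.55% of genes did, and Arg1 (0.095) and Ptges (0.072) did not. Ptgs2 differed by -0.70 ± 0.39 (adjusted p = 0.38), and Acod1 (0.15 ± 1.28) and Nos2 (-0.36 ± 0.58) overlapped. Alveolar macrophage markers moved with the same arrays: their mean level relative to all arrays was 0.16 and 0.32 on AKR smoke LPS against -0.40, -0.28 and -0.39 on AKR air LPS, and 0 of 10 passed (2 rose without the pair). Their part in the differences of Arg1, Slc7a2 and Ptges was not tested. In C57 with LPS no gene of the 6 passed between smoke and air, with or without the pair, and 0% of tested genes did. All 6 overlapped there, with none at an unadjusted p under 0.05 against 217 genes. Acod1, at -2.04 ± 1.15 with all arrays, was at 0.09 ± 0.40 without the pair. The change of the LPS response with smoke, tested as a difference of differences, passed for none of the 6 in either strain, with or without the pair, and 0% of tested genes passed with all arrays (0.116% in AKR without the pair). None of the 6 in AKR and 1 in C57 had an unadjusted p under 0.05, as did 992 and 1081 genes.

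Whether the strains respond differently was tested as the AKR change minus the C57 change. After room air none of the 6 passed, where 1.14% of tested genes did, and only Ptges had an unadjusted p under 0.05, as did 1651 genes. Its change was larger in AKR by 0.94 ± 0.43 log2 units (limma adjusted p = 0.40), and without the pair this passed (± 0.23, adjusted p = 0.025; 2.73% of genes). Arg1 went the other way, with a change smaller in AKR (-0.99 ± 0.53, adjusted p = 0.50; 0.17 without the pair). For Acod1 the difference was 0.30 ± 1.62, with a 95% interval of -3.05 to 3.66 that narrowed to -0.74 to 1.34 without the pair. For Slc7a2 it was -0.18, for Ptgs2 0.38 and for Nos2 0.48. After smoke Ptges alone passed, larger in AKR by 2.08 ± 0.45 (adjusted p = 0.018; 1.82% of genes) and by 1.21 ± 0.27 without the pair (adjusted p = 0.034; 0.918%). That call was lost without AKR smoke saline 1 (adjusted p = 0.051), AKR smoke LPS 1 (0.14), AKR smoke LPS 2 (0.06) or C57 smoke saline 3 (0.062), and in a fit of the 4 groups alone (0.25).

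After room air the strain difference of Ptges depended on the reference. Room air alone as the reference was added after seeing the data. It was taken at 6 weeks in C57 (3 arrays, mean 8.97) and at 3 weeks in AKR (2 arrays, mean 8.89), since AKR at 6 weeks lies in the other set of arrays. Against it instead of saline, Ptges rose with LPS by 1.39 ± 0.30 in C57 and by 1.36 ± 0.34 in AKR (limma adjusted p = 0.0041 and 0.011; 22.9% and 15.8% of genes passed), and the difference between strains was -0.03 ± 0.45 (95% interval -0.97 to 0.91, adjusted p = 0.98; 0.741% of genes passed). AKR arrays with room air alone read 8.90 and 8.88 at 3 weeks and 8.61, 8.62 and 8.54 at 6 weeks. All AKR saline arrays, after air or smoke, were lower, from 7.94 to 8.32. Saline against room air alone at 3 weeks, within the smaller set of arrays, differed by -0.80 ± 0.34 in AKR (adjusted p = 0.21, where 0.687% of genes passed). Without the pair it fell by 0.80 ± 0.18 (adjusted p = 0.024; 2.22%). In C57 the saline arrays read 9.06 to 9.20 and room air alone 8.86 to 9.11, and none of the 6 passed (0.0136% of genes; 907 genes but none of the 6 at an unadjusted p under 0.05). Saline and room air alone are titled 3 and 3 weeks in AKR and 3 and 6 weeks in C57. The strain by saline difference of Ptges was -0.97 ± 0.45 (limma adjusted p = 0.26, with 1.48% of genes passing). It passed without the pair (± 0.24, adjusted p = 0.027, with 4.02% of genes passing). Monocyte and macrophage markers were also low on the AKR air saline arrays, at -0.99 to -0.96 relative to all arrays against -0.68 and -0.45 with room air alone at 3 weeks, and their part in the Ptges values was not tested. For Arg1 the change of reference left the strain difference at -0.95 ± 0.56 (adjusted p = 0.34).

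The only strain comparison within 1 set of arrays and without instillation is room air at 6 weeks, and none of the 6 passed there, where 2.69% of tested genes did (3.69% without the pair, again with none of the 6). None of the 6 had an unadjusted p under 0.05, as 1723 genes did. Ptges arrays read 8.61, 8.62 and 8.54 in AKR against 9.11, 8.86 and 8.95 in C57 and did not overlap, a difference of -0.38 ± 0.30 (limma adjusted p = 0.74). Slc7a2 (-0.24 ± 0.25) and Nos2 (0.44 ± 0.52) did not overlap either, as for 21.5% of genes in all. The differences of Acod1, Arg1 and Ptgs2 were -0.06, 0.19 and 0.03.

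Ordered by group mean, the 4 LPS groups were the highest for 5 of the genes, and for Arg1 C57 smoke saline, with array 3, stood above AKR air LPS. AKR smoke LPS was highest for Acod1 (12.9), Slc7a2 (10.63) and Ptges (10.88), AKR air LPS for Nos2 (8.73) and Ptgs2 (10.92), and C57 smoke LPS for Arg1 (8.12). Without array 3, C57 smoke LPS was the highest also for Slc7a2 (10.77) and Nos2 (8.83). With all arrays, LPS groups next to each other in the order overlapped, except for Arg1, where AKR smoke LPS (7.28 to 8.15) lay above AKR air LPS (6.54 to 7.23). Without the pair, C57 smoke LPS (10.72 and 10.82) lay above AKR smoke LPS (10.62 and 10.64) for Slc7a2. C57 air LPS (10.47 to 10.77) then also lay above its neighbour AKR air LPS (9.84 to 10.45) for that gene. The C57 and AKR arrays with LPS are in different sets. At the low end some neighbouring groups of 2 or 3 arrays did not overlap for 2 genes. For Ptges these were AKR room air alone at 3 weeks (mean 8.89), at 6 weeks (8.59) and AKR smoke saline (8.15). For Slc7a2 they were AKR smoke saline (9.22), room air alone at 3 weeks (8.99) and AKR air saline (8.89). The share of all tested genes with such separations in the order was not counted. AKR room air alone at 6 weeks is in the other set of arrays.

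Neighbouring genes of each pathway were counted from lists chosen by name. Of 22 tested genes of a list on arginine, nitric oxide and its cofactor, without the 3 described here, 7 rose and 0 fell after LPS in C57, and 5 rose and 2 fell in AKR (medians 0.19 and 0.11), where 15.7% and 16.9% of all tested genes passed in either direction. Without the pair of C57 arrays 8 rose and 0 fell in C57, and 6 rose and 2 fell in AKR. Arg2, the mitochondrial arginase, rose in both strains, by 2.84 ± 0.62 in C57 (7.18-fold, limma adjusted p = 0.0061) and by 2.65 ± 0.62 in AKR (6.27-fold, 0.005). Its arrays read 10.83, 10.46 and 10.64 with LPS against 8.01, 7.89 and 7.49 with saline in C57, and 10.40, 10.71 and 10.03 against 7.70, 7.83 and 7.67 in AKR, with no overlap in either strain. Gatm, which starts creatine synthesis from arginine, rose by 1.94 and 1.41. Gch1, the first enzyme of the nitric oxide synthase cofactor tetrahydrobiopterin, rose by 1.24 and 0.95, and Spr, the last enzyme of that route, fell by 0.31 in AKR (C57 -0.18, adjusted p = 0.19). The transporter Slc7a1 rose by 0.47 and 0.44. The endothelial synthase Nos3 fell by 0.43 in AKR (adjusted p = 0.022; 0.22 in C57, adjusted p = 0.25), and the neuronal synthase Nos1 did not pass (-0.07 and 0.14).

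A list on itaconate and the citrate cycle, without Acod1, held 19 tested genes. Of these 2 rose and 1 fell in C57 and 0 rose and 3 fell in AKR (limma adjusted p; medians -0.02 and -0.18), against 15.7% and 16.9% of all genes in either direction. Without the pair 2 rose and 2 fell in C57, and 1 rose and 3 fell in AKR, where 3367 and 3333 of all tested genes passed. Sdha, the catalytic subunit of succinate dehydrogenase, fell by 0.25 and 0.24. Idh2 fell by 0.59 in AKR (C57 -0.42, adjusted p = 0.058), as did Clybl, which takes part in the breakdown of itaconate, by 0.60 (C57 -0.18, adjusted p = 0.49). Heart muscle markers, which a dissected lung can carry, were lower with the same treatment: their median change was -1.15 in C57 and -0.83 in AKR, and 0 of 9 passed in either strain (1 fell in C57 without the pair). Their mean level relative to all arrays was 0.14, -1.69 and -0.71 on C57 air LPS arrays against -0.02, 0.53 and 0.50 with saline, and 1.13, -0.96 and 0.54 against 1.34, -0.17 and 1.75 in AKR. Their part in the values of Sdha, Idh2 and Clybl was not tested. The dicarboxylate carrier Slc13a3 rose by 1.43 ± 0.32 in C57 (adjusted p = 0.0072) and differed by 0.72 ± 0.32 in AKR (0.13; 0.0061 without the pair). Aco1 rose by 0.29 in C57 and was at 0.07 in AKR.

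Of 19 tested genes of the prostaglandin list 3 rose and 0 fell in C57 and 3 rose and 1 fell in AKR (limma adjusted p; medians 0.12 and 0.09), against the same 15.7% and 16.9% of all genes. Without the pair 4 rose and 2 fell in C57, and 4 rose and 3 fell in AKR, where 3367 and 3333 of all tested genes passed. The prostaglandin E2 receptor Ptger4 rose by 0.82 in C57 and 0.95 in AKR, and the thromboxane synthase Tbxas1 by 0.87 and 0.61. Of the other prostaglandin E synthases, Ptges2 rose by 0.47 in C57 (0.17 in AKR, adjusted p = 0.33), and Ptges3 was at 0.14 and -0.06 with no call. The exporter Abcc4 rose by 0.49 in AKR, and Ptgr1, a reductase that inactivates prostaglandins, fell by 0.87 (C57 -0.62, adjusted p = 0.085). In AKR after smoke, 4631 of all 14705 tested genes passed in either direction (5153 without the pair). There 9 rose and 1 fell of the arginine list, 2 rose and 3 fell of the itaconate list, and 4 rose and 2 fell of the prostaglandin list. Without the pair these counts were 9 and 0, 2 and 5, and 5 and 3. None of the genes of the 3 lists passed for the strain difference of the LPS change after air. There 1.14% of tested genes did (2.73% without the pair, again with none of the lists). No gene of the lists passed between smoke and room air with saline, where 0% of tested genes did in C57 and 0.034% in AKR.

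**Figure D3:**
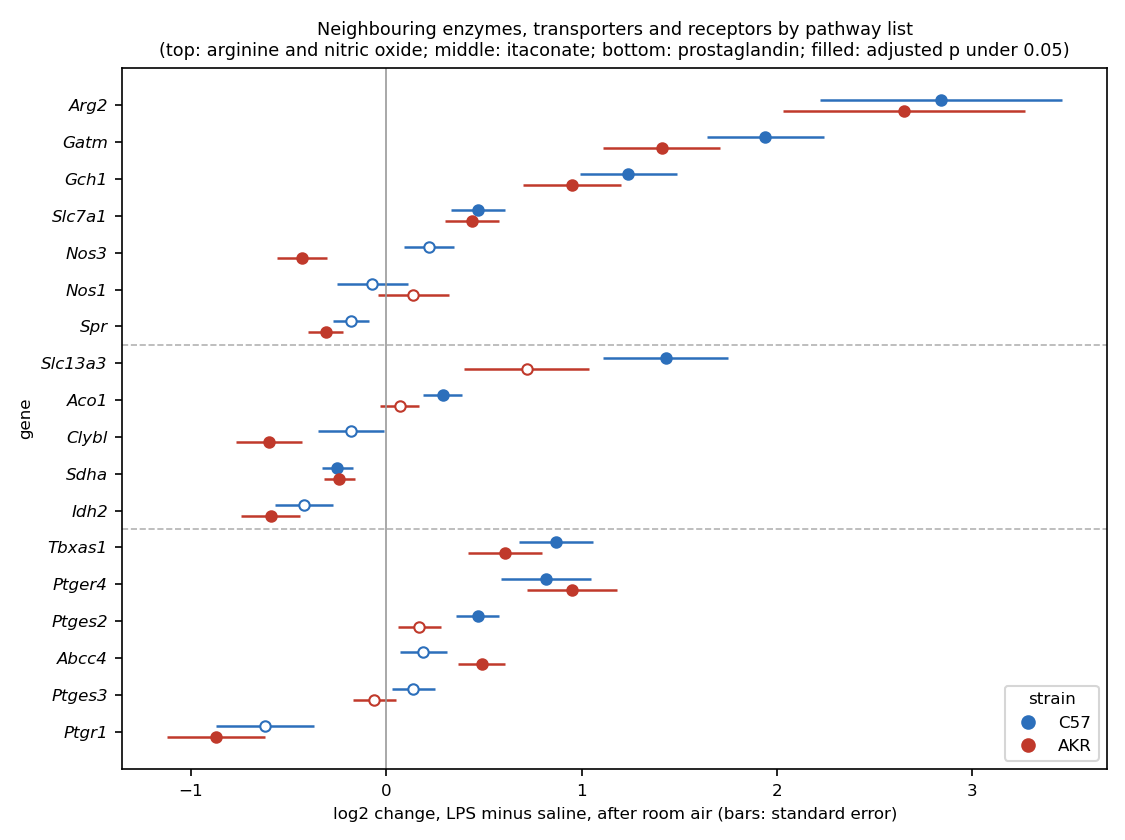
LPS minus saline after room air on the log2 scale (horizontal axis) for named genes of the arginine, itaconate and prostaglandin lists (vertical axis), in blue for C57 and red for AKR; bars are standard errors and filled points passed at a limma adjusted p under 0.05. Arg2 lies farthest right in both strains (2.84 and 2.65), and Ptgr1 farthest left (-0.62 and -0.87).

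Since the samples are whole lung, more cells of a type and more RNA per cell cannot be told apart. After LPS in room air, 11.5% of all tested genes rose in C57 and 9.45% in AKR (15.2% and 11.8% without the pair). Neutrophil markers rose in 3 of 14 cases after LPS in C57 (11 without the pair) and in 12 of 14 in AKR. Their mean level relative to all arrays was 1.32 to 1.39 on C57 air LPS arrays against -0.59 to 0.05 with saline, and 1.23 to 1.79 against -1.35 to -1.26 in AKR. Monocyte and macrophage markers rose in 8 of 11 tested cases in C57 and 9 of 11 in AKR, at 1.00 to 1.23 against -0.20 to -0.10, and 0.46 to 0.95 against -0.99 to -0.96. The markers of both kinds thus rose on the same arrays as the 6 genes, and their part in these rises was not tested. Alveolar macrophage markers rose in 3 and fell in 1 of 10 cases in C57 and rose in 2 of 10 in AKR. Of all tested genes 15.7% in C57 and 16.9% in AKR passed in either direction. No epithelial marker of 9 rose in either strain, and 1 fell in AKR. The array labelled C57 smoke saline 3 had neutrophil markers at 1.14 and the array labelled C57 smoke LPS 3 at -1.21, opposite to their labels in the same way as Acod1.

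**Figure D4:**
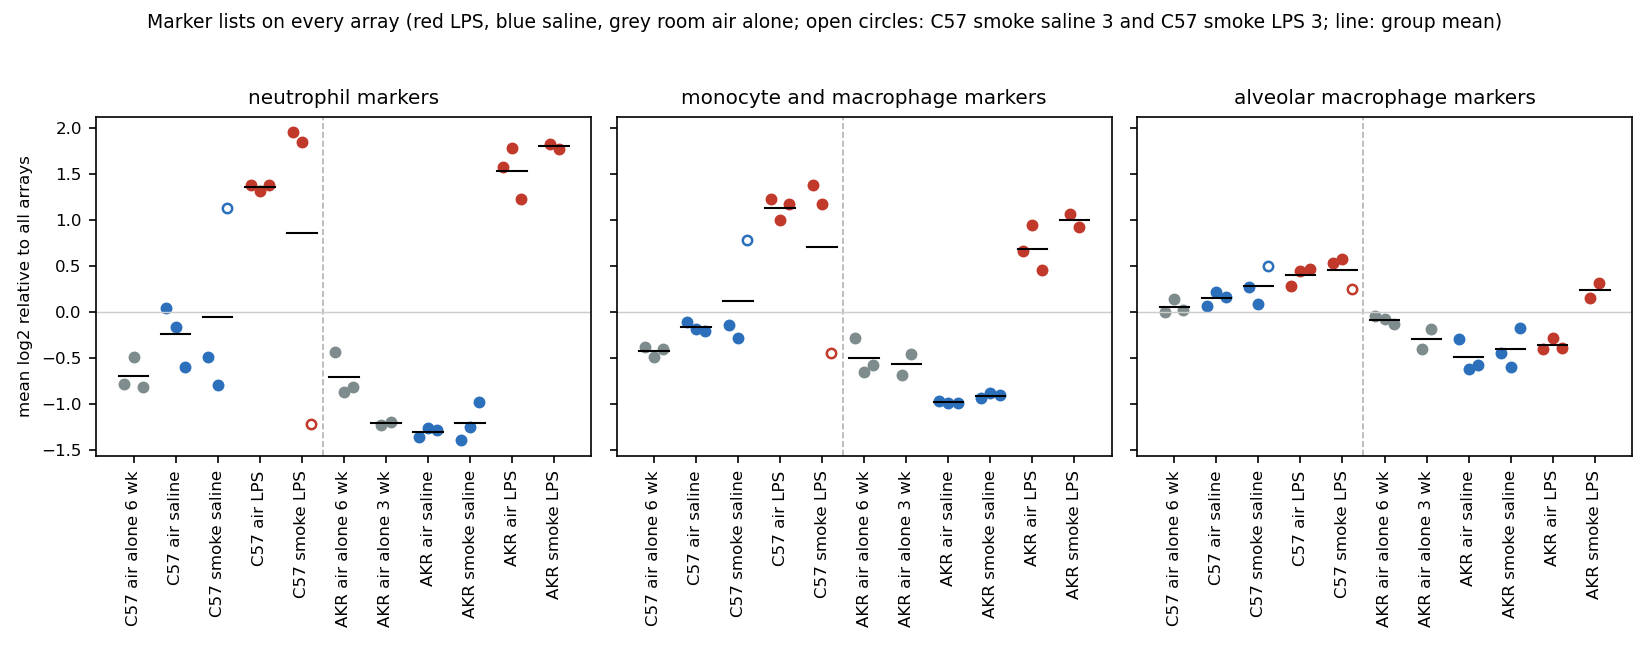
Mean log2 level of the neutrophil, monocyte and macrophage, and alveolar macrophage marker lists relative to all arrays (vertical axis) on every array by group (horizontal axis); red points are LPS, blue saline and grey room air alone, lines are group means, and open circles are the C57 arrays labelled smoke saline 3 and smoke LPS 3. Neutrophil markers on AKR air LPS run from 1.23 to 1.79 and on AKR air saline from -1.35 to -1.26.

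Over the 11 group means, which include both strains and sets of arrays, the genes nearest to each of the 6 by Pearson's r were different genes, none of them listed for more than 1 of the 6. Acod1 was followed by the neutrophil chemokine Cxcl2 (r = 0.997), Ly6i (0.997) and the cytokine Tnf (0.996). Nos2 was followed by Arid5a (0.991), Helz2 (0.989) and the interferon regulator Irf1 (0.988). Those of Arg1 were Timm23, a subunit of the mitochondrial protein import channel (0.982), Pwp1 (0.979) and Tars, a transfer RNA synthetase (0.975), none of them a cytokine or chemokine. Slc7a2 was nearest to Fmnl2 (0.989), Mlph (0.988) and Tnfrsf23 (0.987), and Ptges to Sh3bp2 (0.992), the tumour necrosis factor receptor Tnfrsf1b (0.99) and the complement receptor C5ar1 (0.989). Ptgs2 had no neighbour as near: Mov10 (0.95), Il27 (0.936) and Tnfrsf14 (0.936). Without the pair its 3 nearest were Pigr, Procr and Smox (0.956 to 0.941). Leaving out the pair also put Inhba, Nfkbid, Ubtd1, Tnip3 and Wdr1 in place of Tnf, Irf1, Pwp1, Fmnl2 and C5ar1. The 6 genes themselves correlated with each other without the pair, from 0.684 (Arg1 and Ptgs2) to 0.967 (Acod1 and Nos2).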

How the data were processed

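The values are deposited log2 intensities per probe set, made by the authors with RMA (robust multi-array averaging) per the submitters' processing notes; its version, array order and settings are not given in the sources used here. Lung RNA was biotin-labelled, per the labels. Each of 31 arrays has 35556 probe sets. Genes were named from the platform annotation where a probe set has 1 symbol (21789 probe sets; 1621 have several and 12146 are unnamed), with symbols updated by Entrez ID (99.6% matched in RefSeq). Of several probe sets of a gene the one with the highest mean was kept. Ass1, Sms and Ptgs1 were not analysed here.

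Tests covered 14705 of 19938 genes, those whose value exceeded percentile 40 of the array in 3 or more arrays. limma fitted a mean for each of 11 groups (20 residual degrees of freedom; 18 without both C57 arrays), with empirical Bayes moderation, two-sided tests and Benjamini-Hochberg adjustment over all tested genes, at an adjusted p threshold of 0.05. The script was tested on simulated data. The members and the gene lists were chosen with earlier results of these data known. Named genes are the 6 members, their paralogs, the 3 called genes of each list with the largest change in each direction after room air, and the 3 tested genes nearest to each member over the 11 group means. Promoters are shown for the 3 members with an entry in the promoter table. Of these, Ptgs2 was not called in C57 after room air with all arrays. Nos2 and Slc7a2 were called in both strains and have no entry there. Percentiles are ranks within an array's probe sets.

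Replicate numbers of the titles are not said to pair arrays. Deviations of same-numbered arrays correlated at -0.77 to 0.55 over the comparisons, and all pairs exceeded 0.1 with 3 pairs only for saline against room air alone in C57 (0.23 to 0.41). Alternatives were the filter, the mean over probe sets, quantile normalization of all arrays, trended robust moderation, a fit of the groups compared alone, the replicate block, each array left out, and the pair left out; room air alone as reference was added after seeing the data. Few arrays per group limit the precision. The work used R 4.3.3, limma 3.58.1, data.table (1.17.8), Python 3.11.15 and matplotlib 3.10.9.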

Additional observations from a re-analysis of the deposited data

Results flagged for a closer look

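By the test of the difference itself (limma), the response of Ptges to LPS differed between strains in some fits. After room air it was larger in AKR by 0.94 log2 units, which did not pass with all arrays (adjusted p = 0.40). It passed in 1 of 21 alternatives, the fit without the pair of C57 arrays (adjusted p = 0.025). After smoke it was larger in AKR by 2.08 with all arrays (adjusted p = 0.018) and by 1.21 without the pair (adjusted p = 0.034). The call after smoke passed in 14 of 19 alternatives and was lost in a fit of the groups compared alone (adjusted p = 0.25). The difference of Ptges between saline and room air alone also differed between strains without the pair, by -0.97 (adjusted p = 0.027). With all arrays it did not pass (adjusted p = 0.26). Saline and room air alone are titled 3 and 3 weeks in AKR and 3 and 6 weeks in C57. The saline arrays are the reference of the LPS differences above. With room air alone as reference the difference after room air was -0.03. No group has 4 arrays, so single arrays were not tested against their group.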

How the results depend on the processing

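Of the 15 counts of members that passed, most stayed at their value or within 1.5 times of it under the alternatives tried; the changes follow. Without both C57 arrays, 6 passed for LPS after smoke in C57 (0 with all arrays) and 1 each for smoke with LPS in AKR, strain by LPS after room air and saline against room air alone in AKR (0 with all arrays). In a fit of the groups compared alone, 3 passed for LPS after room air in AKR (5 with all groups) and 0 for strain by LPS after smoke (1 with all groups). Leaving out each array in turn gave 0 to 6 members for LPS after smoke in C57, where 0 to 1881 genes passed. For LPS after room air it gave 4 to 5 in either strain, where 1121 to 1860 genes passed in C57 and 1368 to 2364 in AKR. Leaving out any saline array kept the 5 for LPS after smoke in AKR. Leaving out an LPS array there leaves 1 in its group, and without AKR smoke LPS 1 neither Nos2 nor Arg1 passed. For strain by LPS after smoke the 1 call was lost without AKR smoke saline 1 or C57 smoke saline 3. It was also lost without either AKR smoke LPS array, an omission that leaves 1 array in that group. The replicate block left the count of members as it was in every comparison (5 for LPS after room air in C57, where 2319 genes passed against 2316 without it). Each member has 1 probe set, so the mean over probe sets could change only the adjustment.

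Some differences that did not pass with all arrays changed sign. Without both C57 arrays, smoke with saline in C57 was at -0.09 for Nos2 and -0.07 for Ptges, smoke with LPS in C57 at 0.09 for Acod1, 0.23 for Nos2, 0.15 for Slc7a2, 0.20 for Ptgs2 and 0.23 for Ptges, and strain by LPS after smoke at -0.44 for Arg1 and -0.01 for Slc7a2. With room air alone as reference, strain by LPS after room air was at -0.08 for Nos2 and -0.03 for Ptges. Leaving out each array in turn moved smoke with saline in C57 over -0.09 to 0.26 for Nos2 and -0.07 to 0.49 for Ptges, and in AKR over -0.03 to 0.60 for Acod1, -0.14 to 0.02 for Arg1, -0.05 to 0.21 for Ptgs2 and -0.03 to 0.13 for Ptges. It moved smoke with LPS in C57 over -3.42 to 0.09 for Acod1, -1.31 to 0.23 for Nos2, -0.18 to 0.59 for Arg1, -0.42 to 0.15 for Slc7a2, -0.80 to 0.20 for Ptgs2 and -0.62 to 0.23 for Ptges, and in AKR over -0.37 to 0.45 for Acod1 and -1.09 to 0.05 for Nos2. Strain by LPS after smoke moved over -0.17 to 0.88 for Arg1 and -0.76 to 0.25 for Ptgs2, AKR against C57 in room air alone over -0.11 to 0.15 for Ptgs2, and saline against room air alone in AKR over -0.09 to 0.22 for Acod1 and -0.03 to 0.13 for Arg1. The cause of these changes was not tested. Over all genes, the pair of arrays moved the number that passed from 0 to 3048 for LPS after smoke in C57, 5 to 49 for smoke with saline in AKR, 1 to 228 for smoke with LPS in AKR, 167 to 402 for strain by LPS after room air, 268 to 135 for strain by LPS after smoke, 101 to 326 for saline in AKR and 2 to 16 for saline in C57.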
